A study of Mus musculus with 12 samples.

Results

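The 34 cell cycle and DNA replication genes described here were chosen by name, with earlier results of these data known, out of 35275 genes counted in mouse ileum, and each had 1 row in the deposited table. They were followed in 12 libraries of total RNA from the ileum of C57BL/6 pups at postnatal day 14. Their mothers were either restrained in a ventilated tube for 2 h per day from gestational day 7 to 19 (3 stressed dams) or left undisturbed in the home cage (3 control dams). From each dam came 1 male and 1 female pup, so that each sex held 3 pups of stressed dams, called stressed, and 3 pups of control dams, called control. All pups were of this 1 strain, and a pup is named here by its group and the number of its dam.

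In the young intestine, dividing cells sit in the crypts and in the zones from which crypts form, while the cells of the villi have left the cycle. A cell that prepares to divide loads the MCM helicase on its origins, copies its DNA with the help of the sliding clamp PCNA, and then builds the spindle under the control of cyclin B and CDK1. Transcription of the first set of genes is driven mainly by E2F factors, and that of the mitotic set by the MuvB complex together with B-MYB and FOXM1. RNA of these genes is therefore widely read as a sign of dividing cells. In bulk tissue such as this, fewer dividing cells and less RNA per dividing cell cannot be told apart.

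All 34 genes were expressed, with raw counts from 55 (Ccne1 in control male 3) to 4671 (Mki67 in stressed male 1), and all passed the filter on low counts. Library totals ran from 16423523 to 22975526 counts. The 34 genes together held 0.117% to 0.135% of the counts in 11 libraries and 0.0795% in control male 1. Compared per gene length, as FPKM (the deposited values, which divide counts by gene length and library total), the mean levels over the 12 libraries ran from 1.45 (Cdc6) to 65.1 (Pcna) with a median of 8.13.

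Among the replication genes the highest level was that of Pcna, the sliding clamp of DNA polymerases (chromosome 2, 132249162 to 132253314, ENSMUSG00000027342), at 65.1 ± 16.2 FPKM (SD, n = 12). The enzymes of nucleotide supply grouped with it here, the ribonucleotide reductase subunit Rrm2 and the thymidylate synthase Tyms, stood at 7.61 ± 2.14 and 5.10 ± 0.983 FPKM. Of the 6 MCM helicase subunits, Mcm6 was highest at 20.3 ± 2.01 FPKM (chromosome 1, 128331590 to 128359664, ENSMUSG00000026355). Mcm7, Mcm2, Mcm5, Mcm4 and Mcm3 followed at 14.9, 13.02, 12.9, 10.8 and 8.98 FPKM, each with an SD of at most 2.22. Library by library, Mcm6 lay above Mcm7 and Mcm4 above Mcm3 in 12 of 12, Mcm7 above Mcm2 and Mcm5 above Mcm4 in 11 of 12, and Mcm2 above Mcm5 in 8 of 12, so the order of that last pair was the least even. The helicase loader Cdc6 and the helicase activator Cdc45 were lower, at 1.45 ± 0.292 and 3.23 ± 0.781 FPKM.

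In the control of the step from G1 to S phase, Cdc25a, the phosphatase that activates cyclin-dependent kinases (chromosome 9, 109875579 to 109893888, ENSMUSG00000032477), led with 23.6 ± 2.25 FPKM. Ccna2 (cyclin A2), the transcription factor E2f1 and Ccne1 (cyclin E1) stood at 11.5 ± 1.83, 5.43 ± 0.660 and 2.79 ± 0.568 FPKM. Of the mitotic entry genes Plk1, a kinase of centrosome maturation and mitotic entry, was highest at 11.7 ± 3.19 FPKM, just above Ccnb2 (cyclin B2) at 11.1 ± 2.92. Ccnb1, Cdk1, Aurka and Foxm1 followed at 8.34, 5.99, 5.93 and 4.22 FPKM. The spindle and chromosome genes were led by Top2a, the topoisomerase that untangles replicated chromosomes, at 23.7 ± 4.26 FPKM. In this role the lowest was the kinetochore motor Cenpe at 2.80 ± 0.785 FPKM, and between them lay the checkpoint kinases Bub1b and Bub1, the spindle motors and bundlers Kif11, Kif23 and Tpx2, the Aurora B kinase and its partner survivin (Aurkb, Birc5), and the kinetochore protein Cenpf. At the exit from mitosis Cdc20, the activator of the anaphase-promoting complex, stood at 15.7 ± 3.74 FPKM. Mki67, which coats mitotic chromosomes and is the usual marker of proliferation, stood at 13.5 ± 5.06, and Ube2c, the ubiquitin-conjugating enzyme of that complex, at 11.3 ± 3.76.

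The promoters of these genes are printed for 3 members, because they show how the replication and the mitotic genes differ in the motifs that E2F and the MuvB complex are known to read. RefSeq (GRCm38.p6) gave 300-base windows, 250 before to 50 after the start of transcription, for 29 of the 34 members. Not matched were Aurkb, Ccna2, Foxm1, Mcm4 and Tpx2. Searched on both strands were the cell cycle homology region CHR (TTTGAA or TTCGAA), the CCAAT box (CCAAT) and an E2F site (TTTCCCGC, TTTCGCGC, TTTGCCGC or TTTGGCGC). Below are the 250 bases before the start, 5′ to 3′ on the strand of the gene, with matches in capitals. Matches that overlap run together, as do a TTTGGCGC and a GCGCGAAA (an E2F site on the other strand) in Mcm6. The windows are chr10:69352913-69353162 for Cdk1, chr1:128359706-128359955 for Mcm6 and chr7:135716380-135716629 for Mki67, all on the minus strand. The deposited table begins Cdk1 slightly further upstream, at 69352938, so the last of its bases lie inside the gene there.
Cdk1: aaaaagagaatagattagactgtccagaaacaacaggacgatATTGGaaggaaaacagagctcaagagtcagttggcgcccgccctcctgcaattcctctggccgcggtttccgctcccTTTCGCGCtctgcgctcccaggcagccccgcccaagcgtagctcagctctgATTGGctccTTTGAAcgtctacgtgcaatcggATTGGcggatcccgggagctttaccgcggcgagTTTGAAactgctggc
Mcm6: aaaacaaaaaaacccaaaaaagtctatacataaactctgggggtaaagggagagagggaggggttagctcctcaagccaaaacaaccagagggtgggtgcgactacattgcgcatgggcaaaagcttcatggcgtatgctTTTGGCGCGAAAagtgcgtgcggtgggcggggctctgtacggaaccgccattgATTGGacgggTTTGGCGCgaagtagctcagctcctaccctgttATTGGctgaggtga
Mki67: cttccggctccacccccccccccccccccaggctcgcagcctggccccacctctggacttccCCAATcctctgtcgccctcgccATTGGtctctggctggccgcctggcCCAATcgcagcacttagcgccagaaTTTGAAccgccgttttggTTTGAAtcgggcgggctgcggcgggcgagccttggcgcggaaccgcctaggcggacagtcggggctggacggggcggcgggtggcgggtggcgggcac

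In Mcm6 the capitals mark 3 E2F sites, which begin 110, 106 and 47 bases before the start, and 2 CCAAT boxes read as ATTGG at 57 and 14 bases. Mki67 carried no E2F site of these letters but 3 CCAAT boxes and 2 copies of TTTGAA, at 116 and 98 bases. The kinase gene Cdk1 held all 3 kinds of motif, with TTTGAA at 71 and 15 bases, TTTCGCGC at 131 bases and CCAAT boxes at 208, 80 and 48 bases. Over the 29 matched members CHR letters were found in 16 (55.2%), against 16.4% of the 11484 tested genes with a window and 21.7% of the 27025 genes with a RefSeq window. The E2F letters were found in 7 (24.1%), against 4.26% and 2.60%, and CCAAT in 24 (82.8%), against 42.0% and 41.1%. The motifs were split by role. CHR letters stood in 13 of the 16 matched mitotic members and in 3 of the 13 replication and G1 to S members. E2F letters stood in 1 of 16, which is the Cdk1 printed above, and in 6 of 13. No match to any of the 3 was found in the windows of Birc5, Ccne1, E2f1 and Tyms. The windows of E2f1, Cdc6 and Mcm7 lie wholly inside the gene as the deposited annotation places it. For these genes the bases before the deposited start were not searched. A match describes these letters in this window and does not show that a factor binds there.

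Across the 12 libraries 1 control pup stood apart in nearly all of these genes. In control male 1, 28 of the 34 members had their lowest value of the 12 libraries, and all 34 lay below their mean. The shares of all genes tested that were lowest, or below their mean, in this library were not counted. The median deviation of the members from their own mean was -0.73 (log2 of CPM, each count as a share of its library's scaled total), against -0.15 to 0.28 in the other 11 libraries. By role it was -1.0 for mitotic entry, -0.84 for spindle and chromosome genes, -0.78 for mitotic exit and Mki67, -0.72 for replication licensing and -0.66 for the clamp and nucleotide genes. It was -0.12 for the G1 to S genes.

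Plk1 shows the size of this. It stood at 9.61 CPM in control male 1, at 31.2 and 25.8 in control males 2 and 3, at 18.3, 30.2 and 20.5 in stressed males 1, 2 and 3, at 28.9, 25.9 and 30.6 in control females and at 31.4, 29.3 and 27.3 in stressed females. Top2a stood at 67.5 CPM there, at 118 and 175 in the other control males, at 147, 117 and 132 in stressed males, at 114, 140 and 146 in control females and at 102, 122 and 115 in stressed females. For both genes control male 1 was the lowest of the 12 libraries, and the other 3 groups overlapped. Cdc20 likewise stood at 15.9 CPM in control male 1 and at 32.8 and 32.9 in control males 2 and 3. In stressed males it was 19.2, 31.7 and 18.2, in control females 31.2, 29.0 and 36.1, and in stressed females 30.3, 30.9 and 29.7. Stressed males 1 and 3 thus lay nearer to control male 1 than to their own group mate. Control male 1 lay inside the range of the libraries other than itself and stressed males 1 and 3 only for E2f1, Ccne1, Cdc25a, Foxm1, Cenpf and Mki67. The share of all genes inside that range was not counted.

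**Figure D1:**
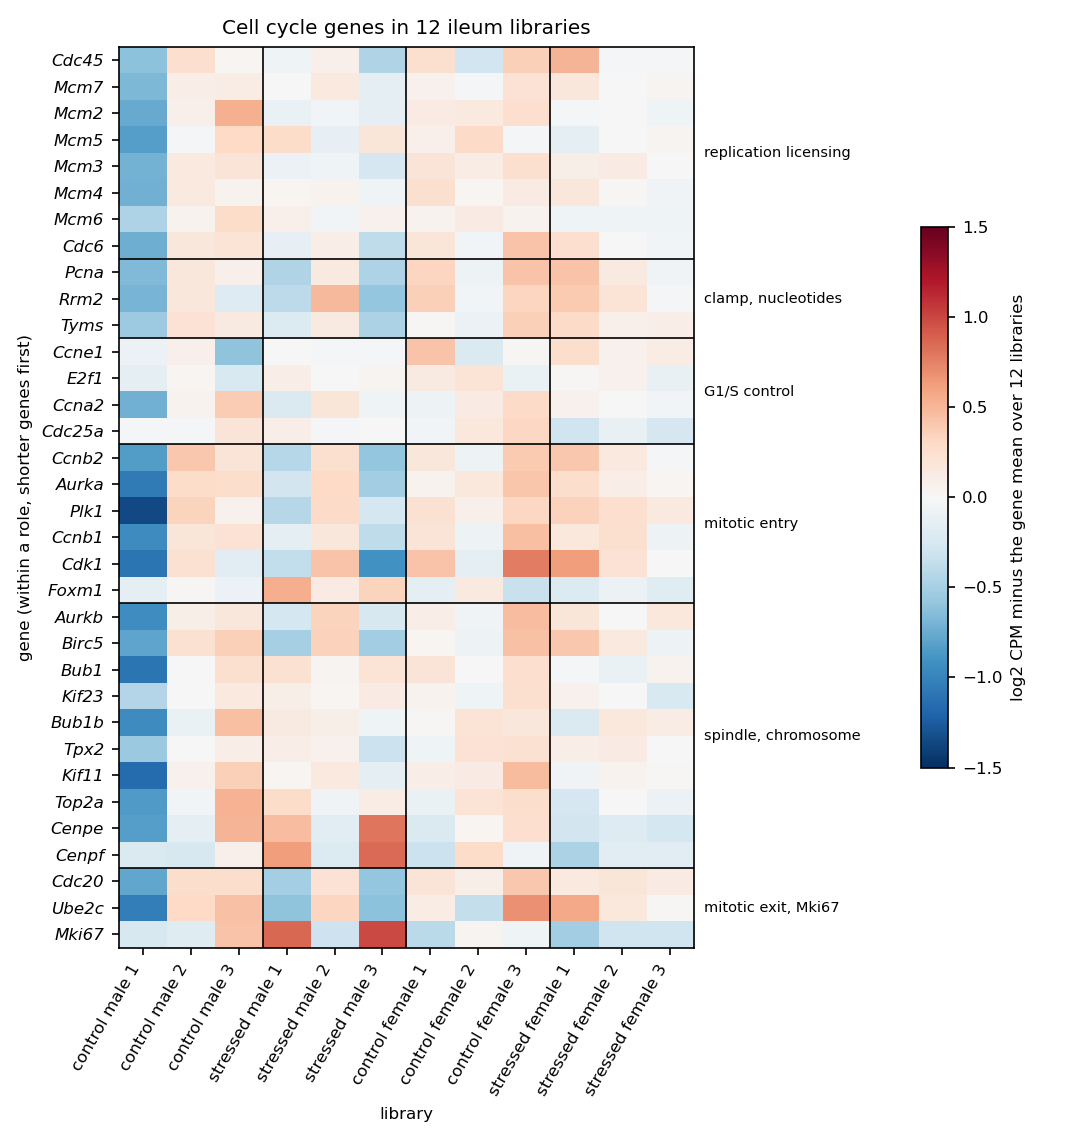
Each row is a member, ordered by role and within a role by gene length, and each column a library; the colour is the log2 CPM minus the mean of that gene over the 12 libraries. The column of control male 1 is below the mean in all 34 rows, and stressed males 1 and 3 are above it in Mki67, Cenpf, Cenpe and Foxm1 and below it in short genes such as Ube2c and Cdk1.

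Of 16 lists of marker genes for cell types and places along the gut, control male 1 lay below the other 11 libraries in 6, above them in 3 and inside their range in 7. The summed level of 8 markers of crypt stem and progenitor cells was 252 CPM in this library and 573 to 1042 CPM in the other 11. Most of this gap lay in Olfm4, at 38.4 CPM against 293 to 740, and the other 7 markers summed to 213 CPM against 273 to 314. The stem cell receptor Lgr5 stood at 24.1 CPM against 24.6 to 53.3. Paneth cell markers summed to 245 CPM against 493 to 3299, goblet cell markers to 832 against 2115 to 4429, and general epithelial markers to 4878 against 5790 to 8171. Smooth muscle markers summed to 7876 CPM against 2833 to 5265, enteric neuron markers to 376 against 205 to 343, and enteric glia markers to 48.6 against 19.0 to 30.0. Macrophage and pancreas markers were also below the other libraries. Markers of the fibroblast matrix, endothelium, B cells, T cells and erythroid cells, and those of the ileum and the upper intestine, lay inside the range of the others. Among 135 other cell cycle genes that passed the filter, 123 lay below their mean in control male 1, with a median of -0.53, against medians of -0.10 to 0.19 elsewhere. The part of the cell make-up in the low cell cycle genes was not tested. The labelled tissue was checked against 6 genes of the ileum, which summed to 1863 to 4916 CPM over the 12 libraries. The bile acid carriers Fabp6 and Slc10a2, which define the ileum most closely, were nearly absent in control male 3, at 0.716 and 0.195 CPM. In the others Fabp6 stood at 29.9 to 608 CPM and the low Slc10a2 at 1.67 to 6.43 CPM. Markers of the upper intestine summed to 6798 and 2538 CPM in the male and the female pup of control dam 3, and to 158 to 514 CPM elsewhere. The 6 ileum genes summed to 2779 CPM in this male. In this female they summed to 4916 CPM, the highest of the 12 libraries, and Fabp6 stood at 61.0 CPM. In these 2 pups the medians of the members were the highest of the 12, at 0.20 and 0.28, and the part of the place of sampling in them was not tested. Of the 93 marker genes looked at, the pancreatic genes Cpa1, Prss2 and Pnlip were at 0 in all 12 libraries and Ctrb1 was under 0.1 CPM in 2.

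**Figure D2:**
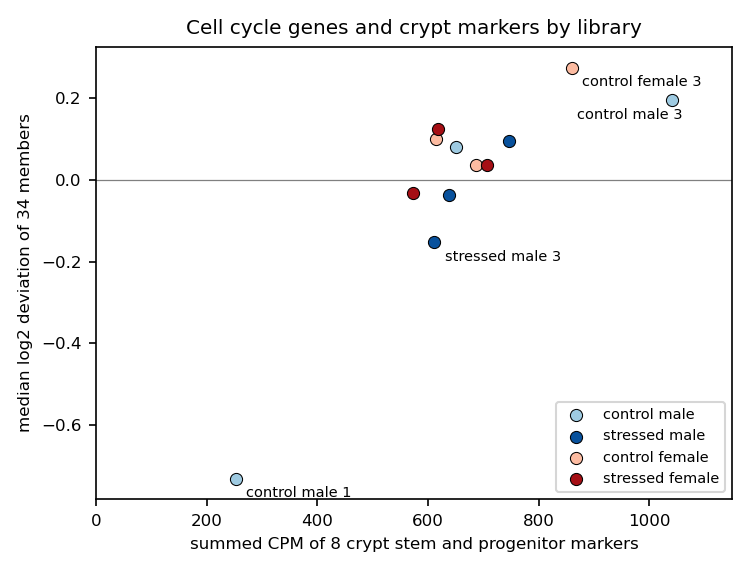
Each point is a library, with the summed CPM of 8 crypt stem and progenitor markers on the x axis and the median log2 deviation of the 34 members on the y axis, coloured by group. Control male 1 lies alone at 252 CPM and -0.73, and the other 11 libraries lie between 573 and 1042 CPM and between -0.15 and 0.28.

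A second pattern divided the members by the length of their transcripts. In stressed males 1 and 3 the longest genes were high and the shortest were low. Mki67 (chromosome 7, 135689788 to 135716379, ENSMUSG00000031004; gene length 10075 bases in the deposited table) stood at 235 and 258 CPM in stressed males 1 and 3 and at 104 CPM in stressed male 2. It stood at 109, 113 and 173 CPM in control males, at 97.7, 133 and 124 in control females and at 89.9, 105 and 105 in stressed females. Cenpf, a kinetochore protein whose 11137 bases are the longest of the 34 (chromosome 1, 189640599 to 189688086, ENSMUSG00000026605), stood at 59.7 and 70.0 CPM in stressed males 1 and 3 and at 33.7 in stressed male 2. It stood at 33.2, 32.6 and 40.8 in control males, at 30.9, 46.9 and 37.2 in control females and at 27.9, 34.8 and 34.5 in stressed females. The short Pcna (1518 bases) ran the other way, with 70.0 and 69.5 CPM in stressed males 1 and 3 and 106 in stressed male 2. It stood at 60.5, 108 and 101 CPM in control males, at 119, 90.9 and 130 in control females and at 130, 106 and 92.8 in stressed females.

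Cdk1 (chromosome 10, 69336635 to 69352938, ENSMUSG00000019942), the main kinase of mitosis and the member with the widest range (3.68-fold from lowest to highest library), stood at 12.4 and 8.51 CPM in stressed males 1 and 3, and at 7.45 in control male 1. Its other libraries ran from 14.4 to 27.4 CPM. Against the 9 libraries other than these 3, stressed male 1 lay below the range for 16 members, inside it for 15 and above it for 3 (Foxm1, Cenpf and Mki67). Stressed male 3 lay below for 20, inside for 10 and above for 4 (the same 3 and Cenpe). The shares of all genes tested that lay outside that range in these libraries were not counted, so these counts have no background beside them. Within these 9 libraries the members varied by 1.18-fold to 2.06-fold between lowest and highest (median 1.41-fold), while over all 12 it was 1.36-fold to 3.68-fold (median 2.29-fold). The 3 libraries were set aside after their values were seen, and a range over fewer libraries cannot be wider. The narrower range is thus a description only.

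The rank correlation of a member's deviation with gene length, across the 34 members, reached 0.75 (stressed male 1) and 0.64 (stressed male 3). It was 0.47 in control female 2, 0.31 in control male 3 and 0.22 in control male 1, and -0.73 to -0.44 in the other 7 libraries. Across all 16102 tested genes it had the same sign in each library, with 0.46 and 0.50 in stressed males 1 and 3 and -0.48 in stressed female 1, so the pattern was not particular to cell cycle genes. These are descriptions across genes of 1 library, which share its depth and processing and are not independent replicates. Stressed males 1 and 3 and control male 1 also held 1.39%, 4.13% and 1.00% of their counts in the noncoding RNA gene Yam1, against 0.171% to 0.5% in the others. Mitochondrially encoded genes took 2.18% and 1.16% of the counts in stressed males 1 and 3 and 3.01% to 4.59% in the others. Whether RNA quality had a part in the levels of Mki67 and Cenpf was not tested. In stressed males 1 and 3 the 2 proliferation readouts Mki67 and Ube2c gave opposite pictures, with a ratio of their FPKM of 3.33 and 3.67. The ratio was 2.09 in control male 1, where both genes lay below their mean, and 0.562 to 1.58 in the other 9 libraries.

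**Figure D3:**
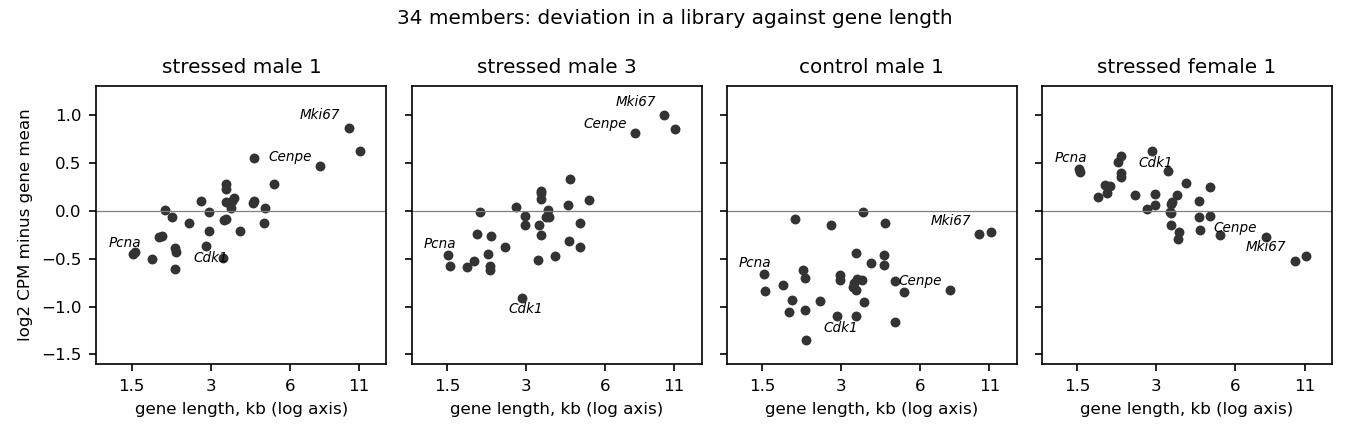
Each point is 1 of the 34 members, with its gene length in kb on a log axis and its log2 CPM minus its mean over 12 libraries on the y axis; each panel is a library. In stressed males 1 and 3 the long genes Mki67 and Cenpe lie high and short genes such as Pcna low, in stressed female 1 the order is the opposite, and in control male 1 all members lie below 0.

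Against this spread, the first comparison asked whether these genes differed between male pups of stressed and of control dams. None of the 34 members passed an adjusted p of 0.05 in edgeR's quasi-likelihood test (smallest adjusted p = 0.752), and none of the 16102 genes tested did (0%). At an unadjusted p under 0.05 there were 2 members in edgeR, 2 in DESeq2 and 2 in limma, where the background in edgeR was 6.38% of genes. This count rested on single libraries: it was 8 without control male 3, 6 without both pups of control dam 3, and 0 without stressed male 1 or with the 6 males alone. The share of all genes at that p was not counted in these fits, so the 8 and 6 have no background beside them. The members' log2 fold changes lay above 0 for 21 and below 0 for 13, with 51.7% of all genes above 0, and their median was 0.08 against 0.01 over all genes. For a typical member the 95% interval, which is not adjusted for the number of genes, reached 0.57 to either side of the estimate.

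Foxm1, the transcription factor that switches on mitotic genes (chromosome 6, 128362967 to 128375893, ENSMUSG00000001517), came nearest in males. It stood at 26.8, 19.99 and 23.1 CPM in stressed males and at 16.7, 18.6 and 17.2 CPM in control males. All 3 stressed males lay above all 3 control males, as for 2.72% of the genes tested, and Foxm1 was the only member whose groups did not overlap. Its log2 fold change was 0.41 ± 0.15 (SE), with unadjusted p = 0.0212 and adjusted p = 0.752 in edgeR. Cenpf had a log2 fold change of 0.62 ± 0.24 (unadjusted p = 0.0269, adjusted p = 0.752 in edgeR), and Mki67 one of 0.59 ± 0.29 (unadjusted p = 0.0682, adjusted p = 0.752). In both, stressed males 1 and 3 were high. Stressed male 2 lay among the control males for Cenpf and below all 3 of them for Mki67. Without the 3 males rich in Yam1 the estimates of Cenpf and Mki67 turned to -0.12 and -0.46, and that of Foxm1 was 0.16. Those 3 are stressed males 1 and 3 and control male 1. This fit thus set stressed male 2 alone against control males 2 and 3. With each library corrected for its trend with gene length, Foxm1, Cenpf and Mki67 stood at 0.31, 0.19 and 0.17.

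The direction of the whole set in males rested on single libraries. Without control male 1 the median turned to -0.15 and 8 of 34 members lay above 0, and without stressed male 2 it was -0.07 with 16 above 0. Without control male 3, 27 lay above 0 with a median of 0.18. Without the 3 males rich in Yam1, where stressed male 2 was the only stressed male, it was -0.05 with 12 above 0. By length, the 17 shorter members (1518 to 3370 bases) had a median of 0.00 and the 17 longer ones (3421 to 11137 bases) one of 0.14. Of the roles, the spindle and chromosome genes had 9 of 10 members above 0 (median 0.14) and the 8 licensing genes 4 above and 4 below (median -0.01). Mcm6, the highest of them, stood at 92.7, 85.5 and 91.6 CPM in stressed males and at 63.7, 91.1 and 106 in control males, a log2 fold change of 0.05 ± 0.16.

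In females 0 of 34 members passed, as did 0% of the 16102 genes (edgeR, smallest adjusted p = 1). At an unadjusted p under 0.05 there was 1 member, Cdc25a, in edgeR and likewise 1 member in DESeq2 and 1 in limma, with a background of 0.298% of genes in edgeR. Cdc25a stood at 69.2, 78.8 and 71.2 CPM in stressed females and at 82.5, 94.7 and 106 CPM in control females, so the groups did not overlap. Its log2 fold change was -0.37 ± 0.12 (SE; unadjusted p = 0.0119, adjusted p = 1 in edgeR). It ran from -0.49 to -0.28 when single libraries were left out, and without control female 3 no member had an unadjusted p under 0.05. In the males Cdc25a stood at 91.5, 83.5 and 85.3 CPM in stressed and 84.1, 84.2 and 97.3 CPM in control pups, a log2 fold change of -0.03 ± 0.12, and the difference of the 2 estimates was 0.34 ± 0.17 (unadjusted p = 0.0767, adjusted p = 0.999 in edgeR).

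Over the set, 27 of 34 members lay below 0 in females, where 51.5% of all genes did, and the median was -0.09 against 0.00 for all genes. The 95% intervals had a median width of 0.56 to either side. The groups did not overlap for 4 members, Mcm2, Mcm6, Cdc25a and Kif11, all lower in stressed females, a direction shown by 2.49% of genes. Mcm6 stood at 84.1, 84.0 and 84.1 CPM in stressed females and at 91.4, 95.9 and 91.1 CPM in control females, a log2 fold change of -0.14 ± 0.16 (unadjusted p = 0.385). Mcm2 stood at 42.8, 43.4 and 41.2 CPM against 47.1, 47.7 and 51.3, a log2 fold change of -0.20 ± 0.23. Among the 17 shorter members 6 lay above 0, and among the 17 longer ones 1 did. Without control female 3, one of the pups with upper intestine markers, 19 of 34 lay below 0 and the median was -0.01. Without stressed female 1 or control female 2 there were 34 and 33 below 0, with medians of -0.15 and -0.16.

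**Figure D4:**
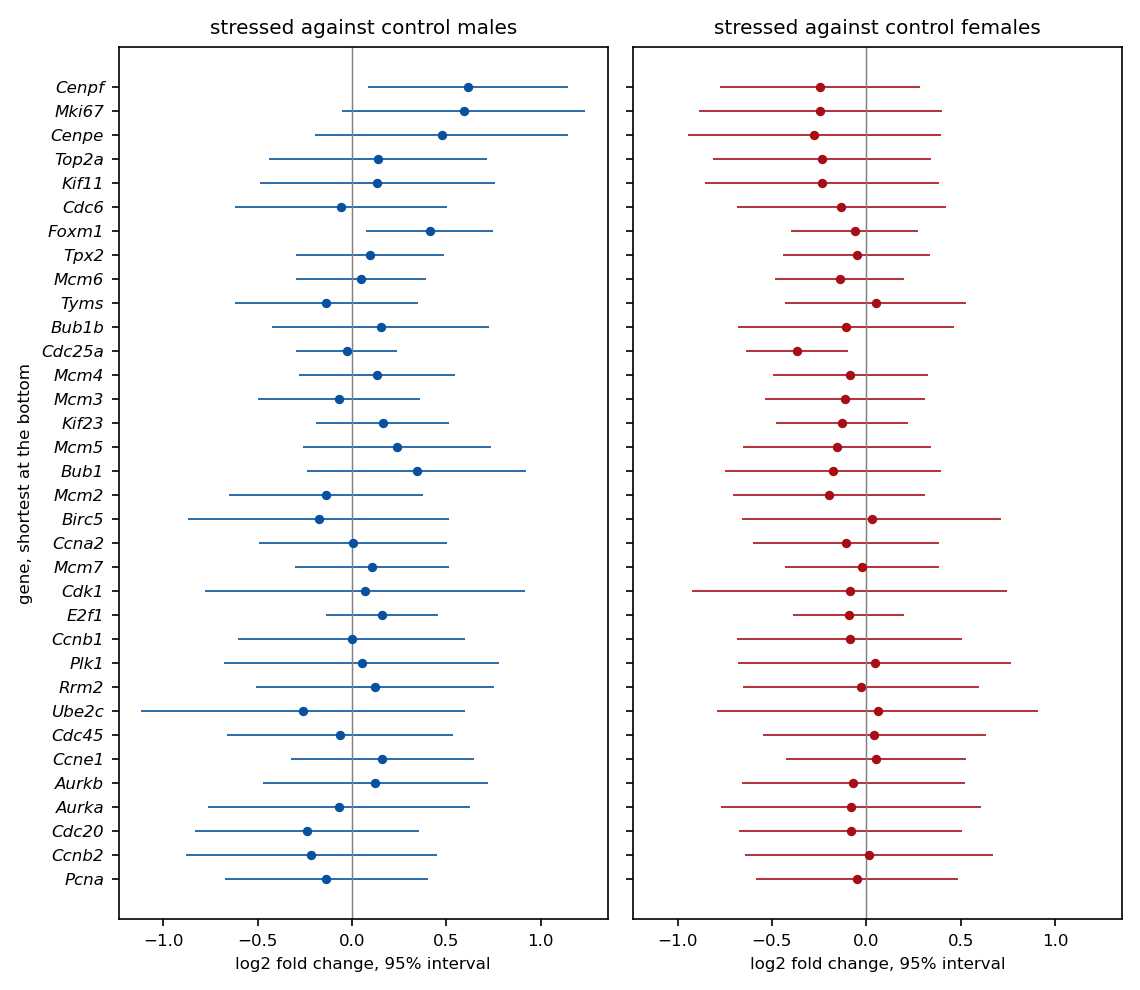
Points are log2 fold changes of stressed against control pups with 95% intervals from the edgeR fit (3 libraries per group), in males on the left and females on the right, with the longest gene at the top. In males the longest genes, Cenpf, Mki67 and Cenpe, lie highest at 0.62, 0.59 and 0.48, and in females the interval of Cdc25a alone does not reach 0.

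The difference of the stress effect between the sexes was tested in the same fit. No member passed (0 of 34; edgeR, smallest adjusted p = 0.999), nor did any of the 16102 genes (0%). At an unadjusted p under 0.05 there was 1 member, Cenpf, in edgeR, 1 in DESeq2 and 2 in limma, with a background of 2.15% of genes. The count in edgeR was 7 without control male 3, 5 without both pups of control dam 3, 4 without stressed male 2 and 0 without control male 1, stressed male 1 or stressed male 3, among others. For these fits, too, the share of all genes at that p was not counted. Cenpf had a difference of 0.86 ± 0.34 (male minus female log2 fold change, SE; unadjusted p = 0.0284), Foxm1 one of 0.47 ± 0.22 (unadjusted p = 0.0516) and Mki67 one of 0.84 ± 0.42 (unadjusted p = 0.0681), each with adjusted p = 0.999 in edgeR. Without the 3 males rich in Yam1, where stressed male 2 was the only stressed male, these were 0.12, 0.22 and -0.21. The members' median was 0.15, with 27 above 0 (50% of all genes), and -0.07, with 13 above 0, without control male 1. The typical 95% interval reached 0.80 to either side.

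**Figure D5:**
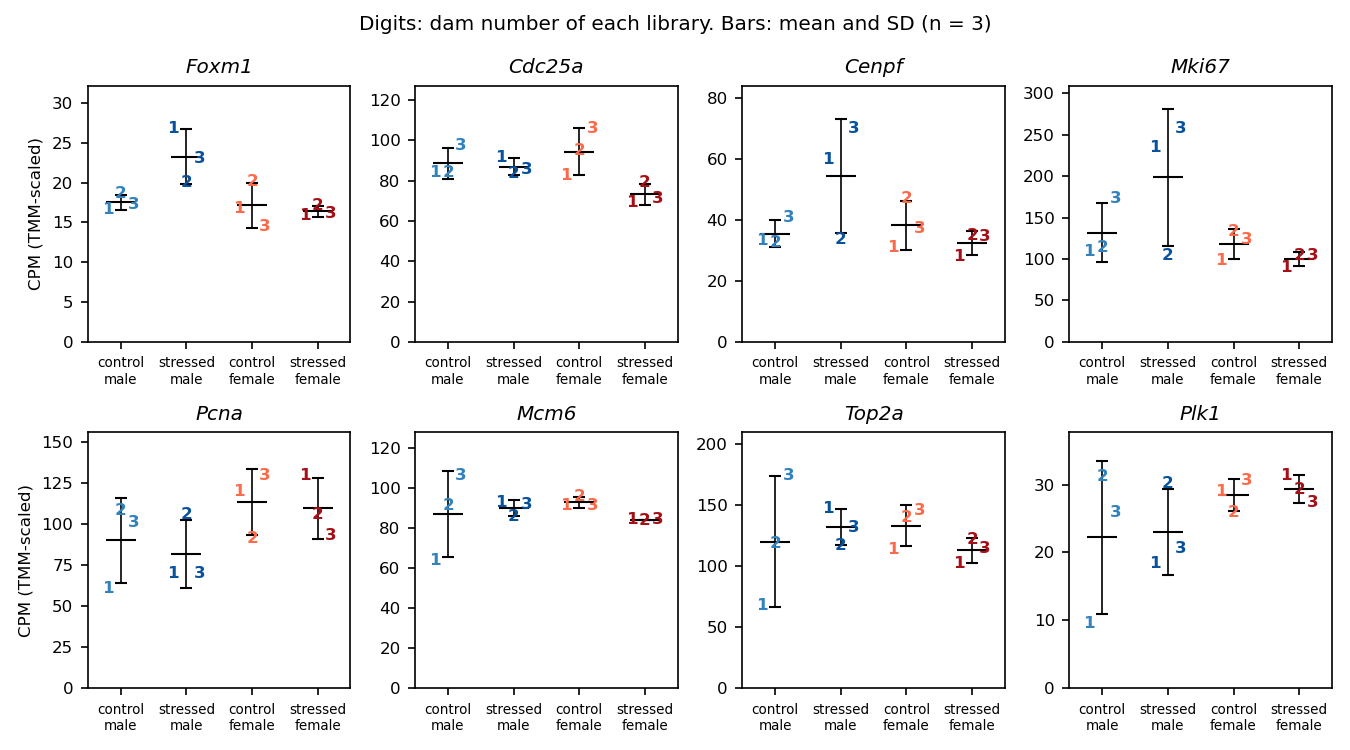
Each digit is a library, placed at its CPM and named by the number of its dam, in 4 groups; bars give the mean and SD (n = 3). Foxm1 is higher in all 3 stressed males than in control males, Cdc25a is lower in all 3 stressed females than in control females, Mki67 and Cenpf are high in stressed males 1 and 3, and Mcm6, Top2a, Pcna and Plk1 are lowest in control male 1.

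Males and females were compared over all 6 libraries of each sex. Of the 34 members 0 passed in edgeR, and of 16102 genes 8 did (0.0497%). At an unadjusted p under 0.05 there were 2 members in edgeR, Mki67 and Foxm1, 4 in DESeq2 and 5 in limma on log2(FPKM + 1), with a background of 12% of genes in edgeR. The count in edgeR ran from 0 without both pups of control dam 3 to 7 without stressed male 2. The share of all genes at that p was not counted in these fits. Mki67 had a log2 fold change of 0.58 ± 0.21 (SE, male against female; unadjusted p = 0.0177), Foxm1 one of 0.27 ± 0.11 (unadjusted p = 0.0305) and Pcna one of -0.38 ± 0.17 (unadjusted p = 0.0512), each with adjusted p = 0.411 in edgeR. The values of the sexes overlapped in all 34 members, and did not in 0.255% of genes. The median over the members was -0.18, with 27 below 0 (50.6% of all genes), and 0 of the 17 shorter members and 7 of the 17 longer ones lay above 0. The 3 libraries rich in Yam1 were all male. Without them, which left stressed male 2 as the only stressed male, the median was 0.04 with 24 of 34 above 0. Mki67, Foxm1 and Pcna then stood at 0.17, 0.18 and -0.08. Without stressed male 2, the count of genes that passed was 1384, and Mki67 was the 1 member among them (log2 fold change 0.74, adjusted p = 0.0346 in edgeR). The share of the genes tested in that fit was not counted, and with so many genes passing the call was not particular to Mki67. Stressed male 2 was the stressed male without the high Yam1.

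Because the dam was the animal stressed, the counts of littermates were also summed and the 3 stressed litters compared with the 3 control litters. Of the 34 members 0 passed, as did 0% of 16749 genes (edgeR, smallest adjusted p = 0.9999). At an unadjusted p under 0.05 there were 0 members in edgeR and 0 in DESeq2, with a background of 1.36% of genes in edgeR. Cdc25a came nearest, at 78.5, 82.0 and 76.9 CPM in stressed litters 1, 2 and 3 and at 83.7, 90.9 and 102 CPM in control litters. The litters did not overlap, as for 3.18% of genes in that direction, and the log2 fold change was -0.22 ± 0.10 (SE; unadjusted p = 0.0548). Foxm1 stood at 20.7, 18.7 and 19.0 CPM against 16.8, 19.7 and 15.6 (0.16 ± 0.12), and Mcm2 at 41.1, 43.3 and 40.1 CPM against 38.1, 47.4 and 55.9 (-0.18 ± 0.14), with overlap in both. Without control litter 3 the estimates of Cdc25a, Mcm2 and Foxm1 were -0.14, -0.04 and 0.10. Without control litter 1 those of Cdc25a and Mcm2 were -0.29 and -0.32, and 2 members had an unadjusted p under 0.05, and without control litter 2 that of Foxm1 was 0.26. Without stressed litter 2, 1 member had an unadjusted p under 0.05. The share of all genes at that p was not counted in the fits with a litter left out. The median over the members was -0.04, with 11 above 0 and 23 below (48.7% of all genes). It turned to 0.08 without control litter 3 and to 0.02 without stressed litter 3, and it was -0.15 without control litter 1. The typical 95% interval reached 0.36 to either side of the estimate. The smallest adjusted p that the authors' deposited table gave a member was 0.99993 in males and 0.9996 for both sexes together, and in females it was 1.

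The other genes of the cell cycle were followed from lists of 137 genes in all. These are genes of origin licensing, the replication fork, nucleotide and histone supply, cyclins and their kinases, kinase inhibitors, the kinetochore, the spindle and condensin, and 135 of them passed the filter. Fen1 and Cdkn2a did not, with at most 15 and 8 counts in a library. None of the 135 passed an adjusted p of 0.05 in edgeR in any comparison of pups, and none of the 136 tested over litters. At an unadjusted p under 0.05 there were 8 in males, 0 in females, 5 in the difference of the sexes, 11 between the sexes and 1 over litters. The shares were 5.93% in males, 0% in females, 3.70% in the difference, 8.15% between the sexes and 0.735% over litters, beside 6.38%, 0.298%, 2.15%, 12% and 1.36% of all genes. In males 79 of 135 lay above 0 (58.5%, against 51.7% of all genes; median 0.03), and in females 99 lay below 0 (73.3%, against 51.5%; median -0.05).

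In males the genes of smallest unadjusted p were Cdk6, a cyclin D-dependent kinase of G1, the condensin subunit Ncapg2 and the helicase Mcm8. Cdk6 stood at 25.7, 11.3 and 42.8 CPM in stressed males and at 12.1, 8.26 and 13.7 in control males, a log2 fold change of 1.23 ± 0.39 (SE; unadjusted p = 0.00902, adjusted p = 0.752 in edgeR). Stressed males 1 and 3 were high, as they were for Mki67. The estimate was 0.05 without the 3 males rich in Yam1, where stressed male 2 was the only stressed male. Ncapg2 stood at 35.6, 27.6 and 41.2 CPM against 16.9, 26.6 and 26.1 (0.58 ± 0.19), and Mcm8 at 4.98, 4.22 and 5.27 against 2.32, 3.66 and 3.12 (0.67 ± 0.23). Their groups did not overlap, and without those 3 males they stood at 0.07 and 0.31. In all, 4 of the 135 genes (2.96%) did not overlap with stressed males higher and 2 (1.48%) with stressed males lower, beside 2.72% and 2.95% of all genes. Ncapg2 and Mcm8 were also first in the difference of the sexes (0.79 ± 0.27 and 0.88 ± 0.32), followed by Aspm, which organises spindle poles (0.72 ± 0.26).

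In females Dbf4, the activating subunit of the kinase that fires origins, came first. It stood at 12.2, 10.2 and 11.5 CPM in stressed females and at 14.7, 12.4 and 14.7 in control females. The groups did not overlap, and the log2 fold change was -0.30 ± 0.17 (unadjusted p = 0.105 in edgeR). Of the 135 genes, 8 (5.93%) did not overlap with stressed females lower, beside 2.49% of all genes. Another 1 (0.741%) did not overlap with stressed females higher, a direction for which the share of all genes is not given here. Ccne2 (cyclin E2) and the mitotic phosphatase Cdc25c had -0.21 ± 0.14 and 0.28 ± 0.21. Over litters Dbf4 again had the smallest unadjusted p (-0.25 ± 0.10, unadjusted p = 0.0439, adjusted p = 0.9999 in edgeR), before Cdk6 (0.55 ± 0.27) and the clamp loader subunit Rfc1 (0.16 ± 0.08). Between the sexes the spindle genes Ckap2 and Prc1 and the kinetochore gene Ndc80 came first, with log2 fold changes of -0.40 ± 0.15, -0.30 ± 0.12 and -0.41 ± 0.16 (each adjusted p = 0.411 in edgeR). Without the 3 males rich in Yam1, where stressed male 2 was the only stressed male, these were -0.13, -0.10 and -0.19.

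Some members share part of their span in the genome with another gene, judged by gene starts and ends and not by exons. No source states whether counting used the strand, so how reads from the shared stretch were counted is not known. On the opposite strand Mcm7 overlaps Cops6 and Ap4m1 (125 and 9.16 CPM on average), Cdc45 overlaps Ufd1l (36.7 CPM), Ccna2 overlaps Exosc9 (21.6 CPM) and Cdc20 overlaps Elovl1 (99.2 CPM). The neighbour of Ube2c, Tnnc2, was at 0 CPM, and that of Foxm1 on the same strand, 4933413G19Rik, at 0.059 CPM.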

How the data were processed

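Ileal RNA of 12 pups was sequenced. The authors' deposited tables hold raw counts and FPKM per gene, and their table of comparisons holds log2 fold changes and p-values, per the file headers. Per the submitters' processing notes, STAR 2.5, TopHat, edgeR 3.16.5, DESeq2 and HTSeq 0.6.1 were used, with mm10 and GRCm38 as builds; no source used here gives the annotation release. All 240813 nonzero FPKM values equalled count over gene length and library total within 1e-06. Counts were tested in edgeR 4.0.16 (TMM, filterByExpr, quasi-likelihood F test, Benjamini-Hochberg over all genes, threshold 0.05), in 1 fit of 4 group means with 8 residual degrees of freedom and, over litters, on summed littermates. DESeq2 1.42.0 and limma 3.58.1 on log2(FPKM + 1) or log2(FPKM + 0.1) were alternatives, beside other size factors and filters, 1 sex alone, blocks and each library left out. A correction for gene length (loess, span 0.5) and fits without the Yam1-rich males or without both pups of control dam 3 were chosen after seeing the data. CPM are TMM-scaled, with a prior count of 2 in log2 deviations. The script was tested on simulated data.

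Members and lists were chosen with earlier results of these data known. Named with all values were the member of highest FPKM in each role and the 3 members, and 3 other cell cycle genes, of smallest unadjusted p in each comparison. Cdk1 was added after its values were seen. Littermates were paired by their dam, and their deviations from the group means correlated at -0.48 to 0.59.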

Additional observations from a re-analysis of the deposited data

How the results depend on the processing

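No member passed the threshold in any comparison under any alternative tried, with 1 exception: Mki67 between the sexes without stressed male 2, a fit in which 1384 genes passed. Members that passed thus ranged from 0 to 1 between the sexes as single libraries were left out, while genes that passed ranged from 8 to 1384 there and from 0 to 1 for stress in males. Between the sexes 18 genes passed in DESeq2 and 5 without the 3 males rich in Yam1, against 8. Without those males Cenpf and Mki67 turned to -0.12 and -0.46 for stress in males, and Mki67 to -0.21 for the difference of the sexes. Leaving out single libraries moved the median of the members from -0.15 to 0.18 in males, -0.16 to -0.01 in females, -0.07 to 0.27 for the difference, -0.26 to -0.08 between the sexes and, for litters, -0.15 to 0.08. The cause of these changes was not tested. With the dam number as a replicate block the medians were 0.10 in males, -0.09 in females and -0.03 over litters, and with the litter as a block 0.16 for the difference and -0.21 between the sexes, where 6 genes passed; no member's call changed. Whether a dam number links a stressed to a control dam could not be decided from the values. Between the groups, deviations of libraries alike in sex and number correlated at -0.41 to 0.36. Of 12 libraries, 6 correlated best with their own number. Among littermates, which do share a dam, 4 of 12 did so, and the check thus missed most pairs known to be real. With 3 libraries per group, the unadjusted 95% interval of a typical member reached 0.57 in males and 0.56 in females on the log2 scale to either side, and the limit after adjustment is wider.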
